A study of Mus musculus with 8 samples.

Results

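Genes of the hair shaft and the inner root sheath were followed in RNA from mouse skin epidermis. They were chosen by name, as 34 genes that encode the keratins of the inner root sheath, the companion layer and the hair shaft, trichohyalin and the enzymes that modify it, the calcium-binding protein S100a3 and 7 transcription factors of the follicle. Of these, 33 had a row among the 54838 genes of the count tables, 30 had at least 1 count in some library and 19 had enough counts to be tested. Krt85 was not analysed here.

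The material was epidermis isolated with trypsin from Ovol1/2 iDKO and control mice at 25 and 52 DPI, with iDKO and DPI spelled as in the labels. The 4 groups, iDKO 25 DPI, control 25 DPI, iDKO 52 DPI and control 52 DPI, held 2 biological replicates each, and the 8 libraries summed to 9824307 to 50711381 counts per library. The labels name neither the driver of the deletion nor an agent given to any group, and do not say whether a replicate is 1 animal or a pool. Levels are given in CPM, the usual depth-scaled read count, on library sizes scaled by the trimmed mean of M-values (TMM), and levels of different genes are compared only per kilobase of annotated exon. Changes in the number of cells of a type and changes of RNA per cell cannot be told apart in bulk RNA.

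The hair follicle passes through growth, regression and rest. In growth, dividing matrix cells at its base give rise to concentric layers, of which the central ones harden into the hair shaft, with its medulla, cortex and cuticle, and the outer ones form the inner root sheath and the companion layer. Each layer makes its own pairs of type I and type II keratins, and the sheath and medulla fill with trichohyalin, which peptidylarginine deiminases modify and transglutaminases crosslink. The matrix and its layers are then lost as the follicle regresses, so RNA of their keratins is known as a sign of growing follicles. Not every gene of the set is particular to these layers, since Gata3, for example, is also made in interfollicular epidermis.

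The labels could be checked only in part. The targeted genes were not lower in the libraries labelled iDKO: Ovol1 had 148 and 204 CPM in iDKO, against 135 and 36.3 CPM in control at 25 DPI, and 98.9 and 193 CPM in iDKO, against 62.7 and 157 CPM in control at 52 DPI. Reads outside a deleted part would be counted all the same, so this checks nothing about the deletion, and every direction below is that of the libraries as labelled. Zeb1, a mesenchymal transcription factor that Ovol proteins are known to repress, had 14.4 and 35.3 CPM in iDKO, against 3.33 and 3.03 CPM in control at 25 DPI, and 17.003 and 20.5 CPM in iDKO, against 2.07 and 2.04 CPM in control at 52 DPI. Genes of the Y chromosome were counted in each 25 DPI library and in no 52 DPI library, so time and sex cannot be told apart. The keratins of basal epidermis were abundant throughout, Krt5 with 5238 to 17728 CPM and Krt14 with 6655 to 21583 CPM. In the replicate 2 libraries 95.37% to 95.73% of the stranded counts lay on the gene's strand, and in the replicate 1 libraries 49.76% to 49.97%, although the labels name 1 kit.

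Libraries were first compared singly. In iDKO 52 DPI replicate 2, 21 of the 30 detected genes of the set had their highest level, where 12.8% of all detected genes did. In control 25 DPI replicate 1, 6 of the 30 did, where 22.6% of all detected genes did, so the set was not highest there more often than other genes. The main comparisons are given with and without these libraries where they move the result.

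**Figure D1:**
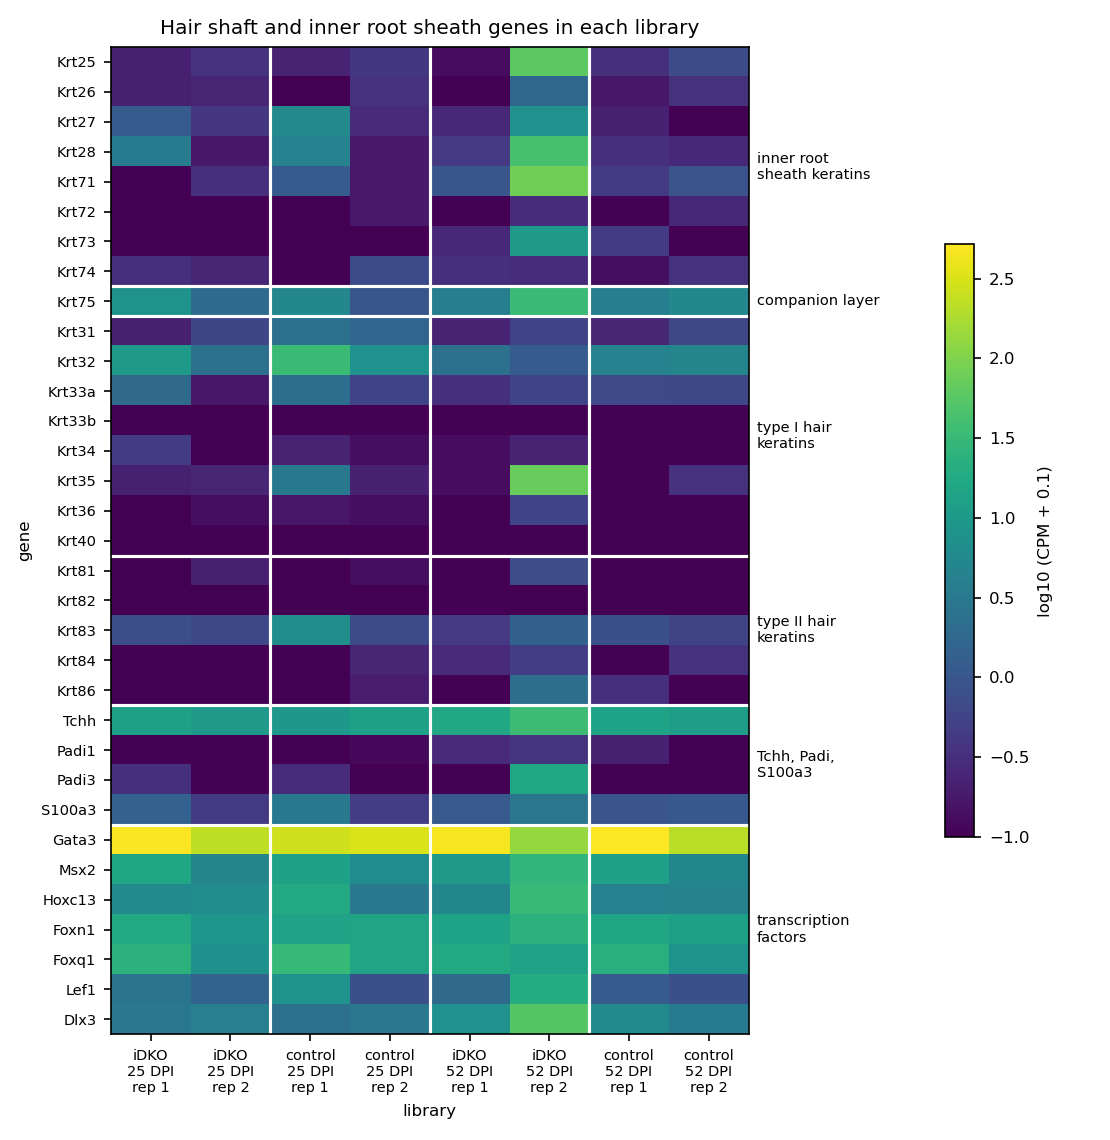
Level of each of the 33 genes (rows, grouped by role) in each of the 8 libraries (columns), as log10 of CPM plus 0.1, with white lines between roles and groups. The column of iDKO 52 DPI replicate 2 holds the highest level of 21 genes, among them Krt71 at 81.2 CPM and Krt35 at 71.9 CPM, and the row of Gata3 is bright in every library.

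Shown first are promoters of Krt71, Krt73, Krt25, Krt28 and Padi3, genes that were far higher in iDKO 52 DPI replicate 2 than in all other libraries, with that of Krt32, a hair keratin that was lower in iDKO in every pair of libraries. The promoter of Krt35, also far higher in iDKO 52 DPI replicate 2, is not shown. Each line is the 250 bases before the RefSeq start (GRCm38.p6), 5′ to 3′ on the gene's strand, all minus. Capitals mark 4 motifs searched on both strands: the TATA box (TATAAA), a Lef1 and Tcf motif (CTTTGAA or CTTTGAT or CTTTGTA or CTTTGTT), the Gata motif (AGATAA or AGATAG or TGATAA or TGATAG) and a Hoxc13 motif (TTTATN with a pair of purines after it, or TTAATN likewise). The windows are chr15:101743098-101743347 for Krt71, chr15:101802361-101802610 for Krt73, chr11:99322952-99323201 for Krt25, chr11:99374904-99375153 for Krt28, chr4:140810649-140810898 for Padi3 and chr11:100088270-100088519 for Krt32.
Krt71: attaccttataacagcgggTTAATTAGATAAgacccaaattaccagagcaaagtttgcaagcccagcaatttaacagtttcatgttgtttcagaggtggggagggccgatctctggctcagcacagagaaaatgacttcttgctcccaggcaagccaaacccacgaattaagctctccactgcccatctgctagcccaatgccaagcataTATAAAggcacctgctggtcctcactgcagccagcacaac
Krt73: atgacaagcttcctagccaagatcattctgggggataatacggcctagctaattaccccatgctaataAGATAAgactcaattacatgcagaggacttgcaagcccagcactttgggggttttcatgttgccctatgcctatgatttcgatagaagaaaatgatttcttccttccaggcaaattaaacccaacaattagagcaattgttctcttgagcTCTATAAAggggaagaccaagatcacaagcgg
Krt25: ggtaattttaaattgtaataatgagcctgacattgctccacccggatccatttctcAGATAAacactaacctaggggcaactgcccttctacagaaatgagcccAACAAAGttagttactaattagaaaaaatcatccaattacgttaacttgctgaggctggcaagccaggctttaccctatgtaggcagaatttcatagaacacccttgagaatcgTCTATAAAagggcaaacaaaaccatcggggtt
Krt28: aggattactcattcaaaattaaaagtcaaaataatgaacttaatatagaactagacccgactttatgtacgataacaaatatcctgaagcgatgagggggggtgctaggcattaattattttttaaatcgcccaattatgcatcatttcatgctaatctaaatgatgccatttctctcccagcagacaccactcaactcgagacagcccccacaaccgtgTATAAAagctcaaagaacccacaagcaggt
Padi3: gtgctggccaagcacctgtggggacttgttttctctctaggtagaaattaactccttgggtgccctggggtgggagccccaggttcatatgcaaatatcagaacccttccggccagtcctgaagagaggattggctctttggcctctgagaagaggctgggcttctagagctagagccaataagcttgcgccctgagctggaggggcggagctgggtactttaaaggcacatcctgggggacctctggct
Krt32: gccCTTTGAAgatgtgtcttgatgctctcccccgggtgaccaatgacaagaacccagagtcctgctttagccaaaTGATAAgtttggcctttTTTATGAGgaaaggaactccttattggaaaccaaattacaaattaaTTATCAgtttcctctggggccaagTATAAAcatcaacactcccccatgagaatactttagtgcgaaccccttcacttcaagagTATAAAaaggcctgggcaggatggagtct

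A TATA box was found in 4 of the 5 windows besides that of Krt32, with its first base 40 bases before the start of Krt71 and 30 bases before those of Krt73, Krt25 and Krt28. It was in 12.4% of all 32851 promoter windows of this length and in 15 of the 30 windows of the set, which cover 24 genes. The Hoxc13 motif was in 3 of the 5 windows, in 13 of the 30 and in 17.2% of all, and it overlapped the TATA box in Krt25 and Krt73 and the Gata motif in Krt71. The Gata motif was in 3 of the 5, in 7 of the 30 and in 26.5% of all, and the Lef1 and Tcf motif in 1 of the 5, in 8 of the 30 and in 14.8% of all. The windows of the type II genes Krt71 and Krt73 each held the Gata motif, the Hoxc13 motif and the TATA box, and Krt32 held all 4 motifs, with TATA boxes 88 and 29 bases before its start. The window of Padi3 held none of these letters. These matches describe the letters of the windows and are not binding sites.

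The inner root sheath keratins were at or near 0 in most libraries and abundant in 1. Krt71 (ENSMUSG00000051879, GRCm38 chromosome 15, 101733949 to 101743109), a type II keratin of all layers of the sheath, had 0.878 and 81.2 CPM in iDKO 52 DPI replicates 1 and 2, against 0.333 and 0.783 CPM in control 52 DPI. At 25 DPI it had 0 and 0.217 CPM in iDKO, against 1.11 and 0.0793 CPM in control. The level of iDKO 52 DPI replicate 2 thus came from 1243 reads, against 17 reads in the next highest library. Its type I partner Krt25 (chromosome 11, 99315516 to 99322951) had 0.0314 and 59.3 CPM in iDKO 52 DPI, against 0.222 and 0.626 CPM in control 52 DPI, and 0.114 and 0.254 CPM in iDKO 25 DPI, against 0.131 and 0.298 CPM in control 25 DPI. Krt28 (chromosome 11, 99364872 to 99374903) had 0.314 and 42.3 CPM in iDKO 52 DPI, against 0.222 and 0.157 CPM in control 52 DPI, and 3.42 and 0.0725 CPM in iDKO 25 DPI, against 4.31 and 0.0793 CPM in control 25 DPI. Both genes were thus high in the same single library, with Krt28 second in the replicate 1 libraries of 25 DPI.

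Krt73 (chromosome 15, 101793308 to 101802346), a keratin of the sheath cuticle, had 0.157 and 10.3 CPM in iDKO 52 DPI, against 0.333 and 0 CPM in control 52 DPI, and no count in any 25 DPI library. Krt27 differed from these. It had 0.157 and 7.38 CPM in iDKO 52 DPI, against 0.111 and 0 CPM in control 52 DPI, but also 5.42 CPM in control 25 DPI replicate 1, with 0.179 CPM in replicate 2 of that group and 1.03 and 0.290 CPM in iDKO 25 DPI. Krt26 reached 1.70 CPM in iDKO 52 DPI replicate 2, against at most 0.238 CPM elsewhere. Krt72 (at most 0.196 CPM) and Krt74, annotated as a transcribed unitary pseudogene (at most 0.575 CPM), stayed near the level of 3 counts, which is 0.0941 to 0.342 CPM depending on the library. The summed level of the 8 sheath keratins was 203 CPM in iDKO 52 DPI replicate 2, against 1.12 to 10.97 CPM in the other 7 libraries, 18.5 times the highest of them.

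Per kilobase of exon, the sheath keratins of iDKO 52 DPI replicate 2 ranked as Krt71 with 37.2, Krt25 with 29.8, Krt28 with 26.1, Krt27 with 4.76, Krt73 with 4.73 and Krt26 with 0.463 CPM per kilobase. As ratios to the highest other library, with 95% exact binomial intervals that cover counting error only, Krt25 was 94.7 times as high (47.9 to 220.1), Krt71 73.2 times (45.5 to 126), Krt73 30.8 times (15.8 to 68.6) and Krt28 9.82 times (7.62 to 12.9). Krt25 and Krt27 share 10.9% and 11.1% of their 50-base stretches with other genes, so reads could be split between them. For Krt71, Krt28 and Krt73 these shares were 1.97%, 2.41% and 1.32%.

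Krt75, the type II keratin of the companion layer between the sheath and the outer root sheath, was counted in every library. It had 3.83 and 34.2 CPM in iDKO 52 DPI, against 3.85 and 5.24 CPM in control 52 DPI, and 7.75 and 1.92 CPM in iDKO 25 DPI, against 5.09 and 0.873 CPM in control 25 DPI. Within each pair of libraries of 1 time and 1 replicate number it was higher in iDKO except at 52 DPI in replicate 1, where the values of 3.83 and 3.85 CPM nearly coincided.

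**Figure D2:**
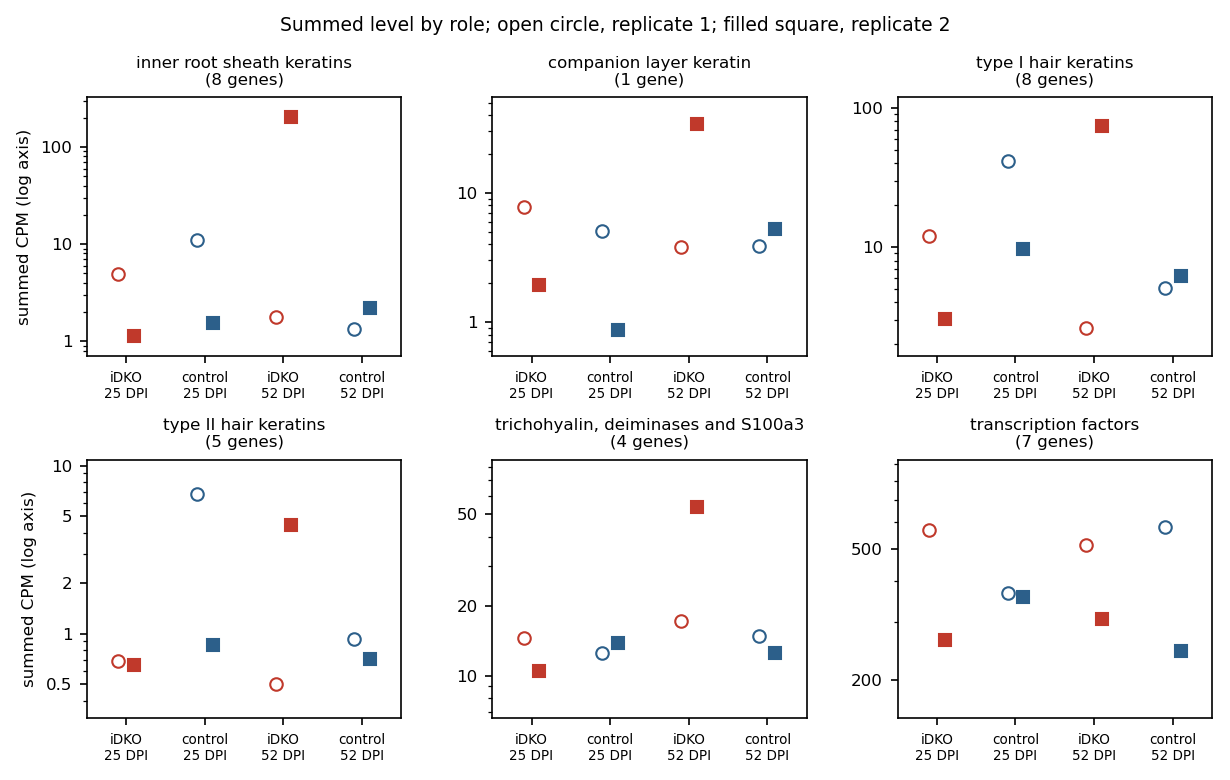
Summed CPM (log axes) of each role in each library, iDKO in red and control in blue, open circles for replicate 1 and filled squares for replicate 2. The filled red square of 52 DPI lies at 203 CPM for the inner root sheath keratins and at 53.8 CPM for trichohyalin, the deiminases and S100a3, above all other libraries, but for the transcription factors at 306 CPM, within their range.

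The type I hair keratins differed among themselves. Krt35 (chromosome 11, 100092193 to 100096241), a keratin of the forming cuticle and lower cortex, had 0.0314 and 71.9 CPM in iDKO 52 DPI, against 0 and 0.235 CPM in control 52 DPI, and 0.114 and 0.145 CPM in iDKO 25 DPI, against 3.07 and 0.119 CPM in control 25 DPI. It was 23.4 times as high in iDKO 52 DPI replicate 2 as in the next library (17.5 to 32.1, counting error only), and at 30.0 CPM per kilobase it was as abundant there as Krt25. Krt36 had 0.457 CPM in iDKO 52 DPI replicate 2, from 7 reads, and at most 0.0653 CPM elsewhere. The keratins of the later cortex, Krt31, Krt33a and Krt34, were at 0.457, 0.457 and 0.131 CPM in that library, below the highest level of each. Krt33b and Krt40 had no count in any library, which allows up to 0.342 CPM in the shallowest.

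Krt32 (ENSMUSG00000046095, chromosome 11, 100080848 to 100088226), a type I keratin of the hair cuticle, was lower in iDKO than in control in all 4 pairs. At 25 DPI it had 9.69 and 2.28 CPM in iDKO, against 33.6 and 7.54 CPM in control. At 52 DPI it had 2.23 and 1.11 CPM in iDKO, against 4.37 and 4.85 CPM in control. The iDKO to control ratios within the pairs were 0.288 and 0.303 at 25 DPI and 0.510 and 0.229 at 52 DPI. By these counts without strand, iDKO replicate 1 lay above control replicate 2 at 25 DPI. The lowest of the 8 levels was that of iDKO 52 DPI replicate 2, the library in which Krt35 was highest. Both orders set replicate 1 against replicate 2 libraries and depend on how strand is counted. Control 25 DPI replicate 2, for example, had 380 reads without strand and 1240 on the gene's strand.

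The cortical keratins Krt31 and Krt33a also had lower CPM in iDKO in all 4 pairs, at low levels. Krt31 had 0.114 and 0.507 CPM in iDKO 25 DPI, against 2.29 and 1.53 CPM in control 25 DPI. At 52 DPI Krt31 had 0.125 and 0.457 CPM in iDKO, against 0.148 and 0.548 CPM in control. Krt33a had 1.82 and 0.0725 CPM in iDKO 25 DPI, against 2.09 and 0.456 CPM in control 25 DPI, and 0.220 and 0.457 CPM in iDKO 52 DPI, against 0.555 and 0.548 CPM in control 52 DPI. At 52 DPI Krt31 had 4 reads in both replicate 1 libraries and 7 reads in both replicate 2 libraries. Krt33a had 7 reads in both 52 DPI replicate 2 libraries. In those pairs the lower CPM came from library size alone. By the direction of CPM, 3 of the 19 tested genes were lower in iDKO in all 4 pairs, where 6.7% of all tested genes were. Dlx3, 1 of 19, was higher in all 4, where 6.73% of all tested genes were. Krt31, Krt33a and Krt34 are close copies, with 28.1%, 17.8% and 33.1% of their 50-base stretches found in other genes, so their separate counts are uncertain.

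**Figure D3:**
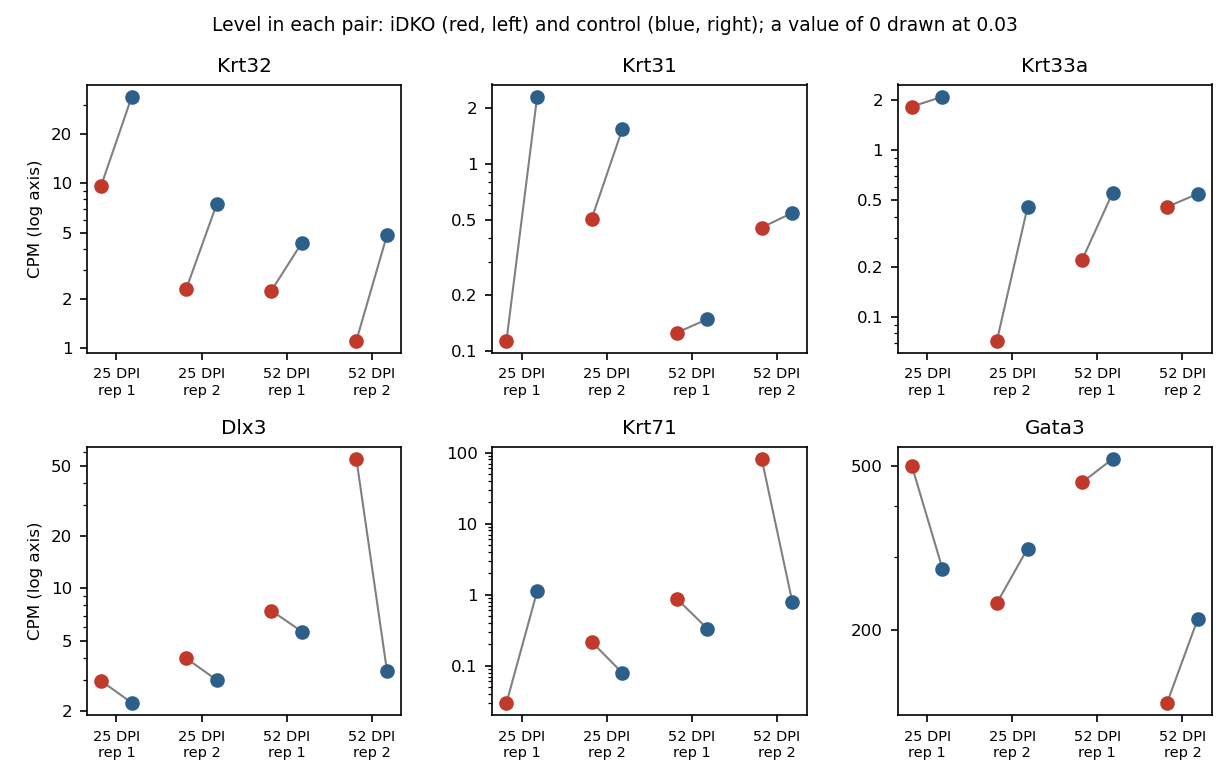
CPM (log axes) of 6 genes in the 4 pairs of libraries of 1 time and replicate number, iDKO red on the left and control blue on the right, joined by a line. Krt32, Krt31 and Krt33a are lower in iDKO in each pair, Dlx3 is higher in each, Krt71 reaches 81.2 CPM in a single library, and Gata3 is higher in iDKO in 1 pair of 4. Read counts were equal in both 52 DPI pairs of Krt31 and in the 52 DPI replicate 2 pair of Krt33a.

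Type II hair keratins were scarce. Krt83 had 0.684 and 0.544 CPM in iDKO 25 DPI, against 6.79 and 0.575 CPM in control 25 DPI, and 0.314 and 1.31 CPM in iDKO 52 DPI, against 0.704 and 0.470 CPM in control 52 DPI. It was thus high in control 25 DPI replicate 1 alone, where Krt32 was highest too. Krt86 had 2.09 CPM in iDKO 52 DPI replicate 2 and at most 0.222 CPM elsewhere, Krt81 had 0.653 CPM there and at most 0.109 CPM elsewhere, and Krt84 had 0.392 CPM there and at most 0.235 CPM elsewhere. Krt82 had no count. Krt81, Krt83 and Krt86 share 37.7%, 22.1% and 43.3% of their 50-base stretches with other genes and their split is uncertain.

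Trichohyalin and the deiminase Padi3 were highest in iDKO 52 DPI replicate 2. Tchh (chromosome 3, 93442330 to 93449077), the matrix protein of the sheath and medulla, had 16.1 and 34.8 CPM in iDKO 52 DPI, against 14.0 and 11.6 CPM in control 52 DPI, and 12.99 and 10.1 CPM in iDKO 25 DPI, against 9.34 and 13.5 CPM in control 25 DPI. It was therefore present at similar levels in the 7 other libraries, unlike the sheath keratins. Padi3 (chromosome 4, 140785365 to 140810648), which deiminates trichohyalin, had 0 and 16.0 CPM in iDKO 52 DPI, against no count in control 52 DPI, and 0.228 and 0 CPM in iDKO 25 DPI, against 0.196 and 0 CPM in control 25 DPI. Its 245 reads in iDKO 52 DPI replicate 2 stood against 2 in the library next in CPM, a ratio of 70.2 with an exact interval of 19.2 to 583. Padi1, the deiminase of interfollicular epidermis, stayed at or below 0.261 CPM, and S100a3, a protein of the hair cuticle, ranged from 0.326 to 3.07 CPM, with its 2 highest levels in control 25 DPI replicate 1 and iDKO 52 DPI replicate 2.

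Among the transcription factors Dlx3 and Lef1 were raised most in that library. Dlx3 (chromosome 11, 95120119 to 95125296), a homeobox factor of the matrix and its layers, had 7.47 and 54.9 CPM in iDKO 52 DPI, against 5.67 and 3.37 CPM in control 52 DPI, and 2.96 and 3.99 CPM in iDKO 25 DPI, against 2.22 and 2.99 CPM in control 25 DPI. Outside iDKO 52 DPI replicate 2 it was higher in iDKO by log2 differences of 0.39 to 0.40 in each of the other 3 pairs. The 25 DPI replicate 1 pair rested on 26 reads in iDKO and 34 in control, and the counting error of these differences was not computed. Lef1, the effector of Wnt signalling in the matrix, had 1.85 and 19.7 CPM in iDKO 52 DPI, against 1.11 and 0.705 CPM in control 52 DPI, and 2.62 and 1.41 CPM in iDKO 25 DPI, against 7.64 and 0.694 CPM in control 25 DPI. Hoxc13, which drives hair keratin genes, had 4.99 and 33.2 CPM in iDKO 52 DPI, against 4.15 and 4.54 CPM in control 52 DPI, and 5.81 and 6.49 CPM in iDKO 25 DPI, against 17.96 and 3.09 CPM in control 25 DPI. Lef1 and Hoxc13 had their second highest value in control 25 DPI replicate 1, and Dlx3 in iDKO 52 DPI replicate 1.

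Msx2 and Foxn1, factors of hair shaft differentiation, were less separated. Msx2 had 28.0 CPM in iDKO 52 DPI replicate 2, against 4.82 to 15.0 CPM in the others, and Foxn1, the gene mutated in nude mice, had 23.9 CPM there, against 8.81 to 18.1 CPM. Gata3, a regulator of the sheath that is also made in interfollicular epidermis, had 455 and 133 CPM in iDKO 52 DPI, against 519 and 212 CPM in control 52 DPI, and 499 and 232 CPM in iDKO 25 DPI, against 281 and 314 CPM in control 25 DPI. Its lowest level was that of iDKO 52 DPI replicate 2. Foxq1, a factor of the medulla, ranged from 7.14 to 30.9 CPM with no order by genotype.

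The iDKO 52 DPI replicate 2 library was also compared with the rest across all genes, as a description without a test, by 2 pairs of thresholds, both chosen after the data were seen. With at least 8 times the level of every other library and at least 5 CPM, 34 genes stood out in iDKO 52 DPI replicate 2, which was 0.307% of the genes at that level, and 6 of the 16 genes of the set at that level were among them: Krt71, Krt35, Krt25, Krt28, Padi3 and Krt73. Control 25 DPI replicate 1 had 33 such genes, or 0.304%, and none of the 11 genes of the set at that level. With 4 times and 2 CPM, 113 genes stood out in iDKO 52 DPI replicate 2 (0.889%), 9 of them of the set, with Krt75, Krt86 and Dlx3 added, and 149 in control 25 DPI replicate 1 (1.17%), of which 1, Krt83, was of the set.

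**Figure D4:**
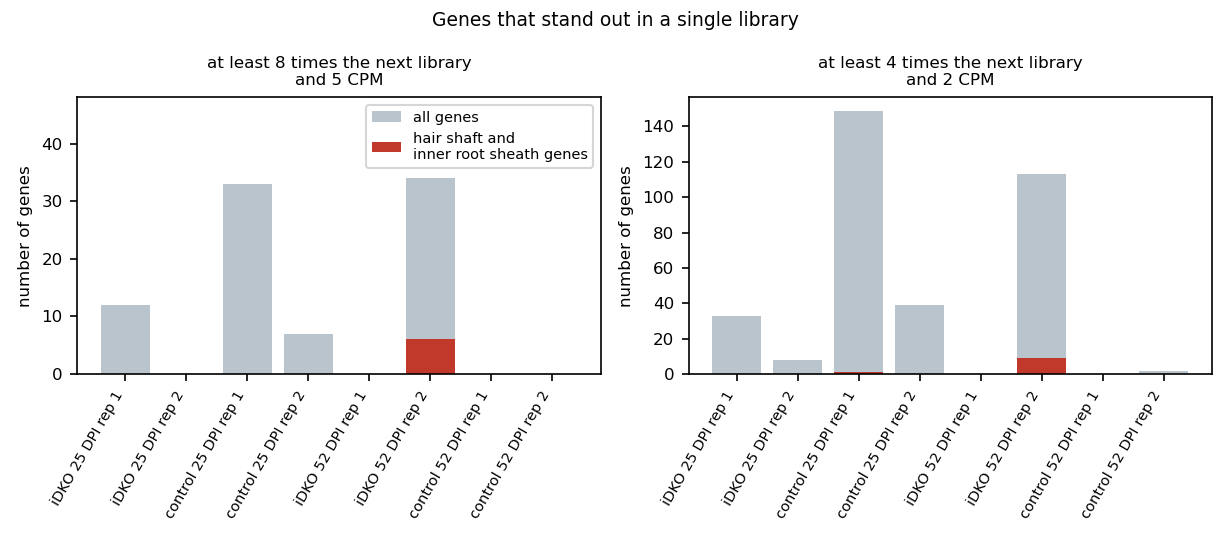
Number of genes that reached at least 8 times the level of every other library and 5 CPM (left) or 4 times and 2 CPM (right), by library; grey bars count all genes and red bars the genes of the set. Red is visible in iDKO 52 DPI replicate 2, with 6 of 34 and 9 of 113 genes, and in control 25 DPI replicate 1 on the right, with 1 of 149.

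Other genes of the growing follicle were described in the same library, and those named in this and the next paragraph were mostly chosen after their values were seen. For the counts of genes highest there in these paragraphs, the share over all detected genes was 12.8%. Of 23 genes of hair matrix and growth phase signals, 13 had their highest level there, among them Shh, the ligand made by matrix cells, with 4.12 CPM, against 0 to 0.570 CPM in the other libraries. Fgf5, a signal for the end of the growth phase, had 2.68 CPM, against no count elsewhere. Dlx1 and Dlx2, relatives of Dlx3, had 8.36 and 14.5 CPM, against at most 0.655 and 3.53 CPM elsewhere, whereas Wnt10a was lowest there, with 29.9 CPM, against 85.0 to 249 CPM. Of 16 other structural genes, 8 were highest there. Among them was Dsg4, the desmosomal cadherin of the hair cortex, with 4.38 CPM, against at most 0.109 CPM elsewhere. Gsdma3 was another, with 124 CPM, against 13.7 to 46.7 CPM. The 16 genes summed to 786 CPM there, against 211 to 831 CPM, with the highest sum in control 25 DPI replicate 1. Keratin-associated proteins, the filler of the finished shaft, summed to 4.77 CPM, against 0.397 to 9.27 CPM, with 39 of 58 genes at 0 in every library. Of the 19 detected, 11 were highest in iDKO 52 DPI replicate 2, among them Krtap8-1 with 25 reads and Krtap15 with 17 reads, against no read elsewhere, and 8.10 of the 9.27 CPM in control 25 DPI replicate 1 came from Krtap17-1.

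Markers of other compartments were also described in that library. The dermal papilla, the cluster of mesenchyme that instructs the matrix, had 7 of 12 marker genes highest there, among them Corin with 5.29 CPM, against 0 to 0.635 CPM, and Vcan with 11.3 CPM, against 0.0314 to 2.39 CPM. Their sum of 54.6 CPM lay within the range of 17.8 to 55.4 CPM of the other libraries. Dermal fibroblast genes summed to 116 CPM, against 7.90 to 159 CPM, with Dcn alone at 84.4 CPM, against at most 8.19 CPM. Dcn was the 1 gene of these 6 that was highest in that library. Genes of the outer root sheath and activated keratinocytes summed to 11451 CPM, against 2494 to 11205 CPM, and interfollicular genes to 24630 CPM, against 27550 to 43672 CPM, below all others. Genes of the resting follicle and its stem cells summed to 6272 CPM, against 6302 to 19925 CPM, with Lgr5 at 20.2 CPM, against 18.1 to 78.3 CPM, and proliferation genes to 441 CPM, against 326 to 403 CPM. By single genes, 3 of the 15 resting follicle genes and 1 of the 10 proliferation genes were highest in that library. Sebaceous gland genes summed to 880 CPM, against 374 to 1295 CPM, Langerhans cell genes to 935 CPM, against 191 to 1469 CPM, skeletal muscle genes to 8.36 CPM, against 3.99 to 20.8 CPM, and endothelial genes to 2.22 CPM, against 0.522 to 3.33 CPM. T cell genes summed to 588 CPM and erythroid genes to 18.3 CPM, against 109 to 327 CPM and 0.627 to 3.19 CPM in the other libraries except control 25 DPI replicate 1. The part of these cells in the levels of the hair genes was not tested.

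Control 25 DPI replicate 1 had other genes in common. Its 10 melanocyte genes summed to 410 CPM, against 60.2 to 85.2 CPM in the other libraries, its T cell genes to 703 CPM, against 109 to 588 CPM, and its erythroid genes to 111 CPM, against 0.627 to 18.3 CPM. Krt32, Krt83 and Foxq1 were highest in it, as were Krt31 with 2.29 CPM, Krt33a with 2.09 CPM and S100a3 with 3.07 CPM. Their relation to these cells was not tested. Between iDKO and control, edgeR called no gene of any of these 16 lists and 0.0% of all 17839 tested genes, so this does not set the lists apart. At 52 DPI 11 of the 13 tested structural genes were higher in iDKO, with a median log2 fold change of 1.46, as were 12 of the 21 tested matrix and growth phase genes, with a median of 0.11, and 6 of the 15 resting follicle genes, with a median of -0.20. Without iDKO 52 DPI replicate 2 these were 8 of 13 with a median of 0.36, 6 of 21 with a median of -0.19 and 6 of 15 with a median of -0.06. Lists of other cells were also higher in iDKO at 52 DPI: 8 of 8 T cell genes with a median of 1.27, 5 of 5 erythroid genes with 2.27, 6 of 6 dermal fibroblast genes with 1.03, 8 of 9 dermal papilla genes with 1.22, 4 of 4 Langerhans cell genes with 0.95 and 8 of 8 sebaceous gland genes with 0.52. Without that library the medians were 0.87 for T cells, -0.80 for erythroid, -0.19 for dermal fibroblast, 0.04 for dermal papilla, 0.92 for Langerhans cell and 0.58 for sebaceous gland genes. Over both times the structural genes of smallest p were Tchhl1, a relative of trichohyalin, at 3.87 (SE 1.68) and Rptn, repetin, at 2.16 (SE 1.09), and the matrix gene of smallest p was Edar, a receptor of the follicle placode, at 1.46 (SE 0.67), each with adjusted p = 1.00 in edgeR's test.

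Tested across all genes with edgeR and its filter on low counts, iDKO against control gave no call in the set. That fit did not use the pairs of libraries of 1 time and replicate number. Other fits called some genes of the set, as given below for each comparison. At 25 DPI edgeR's quasi-likelihood test called 0 of 17839 genes (0.0%) at an adjusted p under 0.05, with 75 genes and no gene of the set at an unadjusted p under 0.05; 14 of the 19 tested genes had lower and 5 higher fitted levels in iDKO. Their median log2 fold change was -0.55, against -0.03 over all tested genes, and 0.16 over the 26 genes tested without control 25 DPI replicate 1. DESeq2 called 1 gene at 25 DPI, none of the set. Krt31 had a log2 fold change of -2.50 (SE 1.22), Krt83 one of -2.58 (SE 1.31), Krt32 one of -1.79 (SE 0.94) and Krt35 one of -3.47 (SE 2.77), with adjusted p = 1.00 for each. Without control 25 DPI replicate 1, Krt31 was at -2.18 and Krt32 at -0.41, and Krt83 at 0.04 and Krt35 at 0.15, the direction of the last 2 reversed.

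At 52 DPI edgeR also called 0 genes (0.0%), with 143 genes and 7 genes of the set at an unadjusted p under 0.05, and 15 of the 19 were higher and 4 lower. The median was 1.08, against -0.01 over all tested genes, and 0.19 over the 20 genes tested without iDKO 52 DPI replicate 2. DESeq2 called 2 genes at 52 DPI, none of the set. Dlx3 had a log2 fold change of 2.78 (SE 0.92), Krt71 of 6.23 (SE 2.17), Krt35 of 8.53 (SE 3.22) and Krt25 of 6.17 (SE 2.37), with an adjusted p of 1.00 each in edgeR's test. Without iDKO 52 DPI replicate 2, with 1 iDKO library left at that time and its spread taken from the other groups, they were 0.73 for Dlx3, 0.68 for Krt71, -1.55 for Krt35 and -3.52 for Krt25, the last 2 from at most 8 reads in each remaining library of that time. Without the filter on low counts edgeR called 25 genes (0.0771%), 24 of them higher in iDKO (0.074%), with 5 of the set, Krt35, Krt28, Krt71, Krt25 and Padi3, all higher. These rest on the same library, since no other library of 52 DPI had more than 28 reads of any of the 5.

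**Figure D5:**
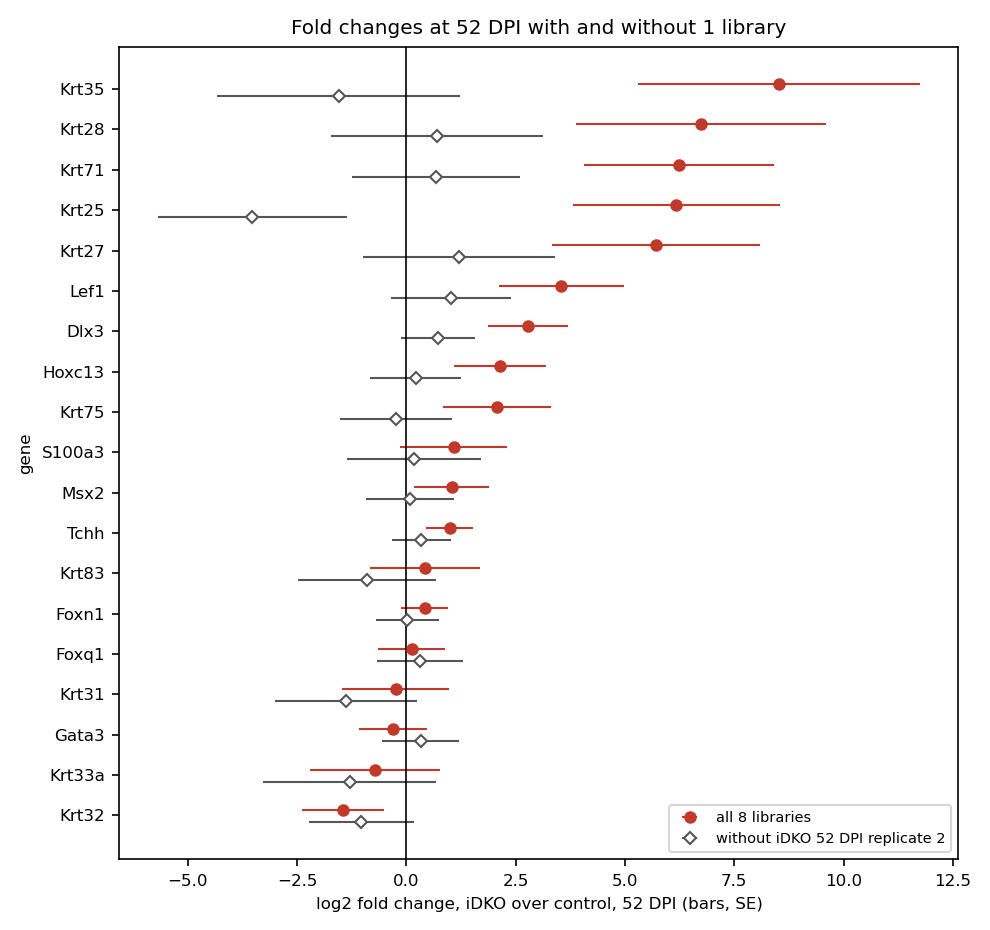
Log2 fold change of the 19 tested genes, iDKO over control at 52 DPI, from edgeR with all 8 libraries (red circles) and without iDKO 52 DPI replicate 2 (open diamonds); bars are SE. The median is 1.08 with all libraries and 0.19 over the 20 genes tested without that one, and Krt32 lies below 0 in both.

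Over both times, with time as a covariate, edgeR called 0 genes (0.0%), with 130 genes at an unadjusted p under 0.05, and DESeq2 called 7 genes, none of the set. Krt32 was the single gene of the set among edgeR's 130, with a log2 fold change of -1.62 (SE 0.62, adjusted p = 1.00). Dlx3 was at 1.61 (SE 0.76), Krt75 at 1.39 (SE 0.86) and Krt31 at -1.43 (SE 0.91), each with adjusted p = 1.00 in edgeR's test. Without iDKO 52 DPI replicate 2 these were -1.48 for Krt32, 0.54 for Dlx3, 0.34 for Krt75 and -2.06 for Krt31.

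Since libraries of 1 replicate number resembled each other, Krt32 was also fitted within pairs. With the replicate number within time as a block, DESeq2 called it lower in iDKO over both times (log2 fold change -1.64, SE 0.29, adjusted p = 3.22e-05) and at 25 DPI (-1.77, SE 0.44, adjusted p = 0.0177), but not at 52 DPI (-1.50, SE 0.47, adjusted p = 0.351). It was the 1 gene of the set called, where DESeq2 called 0.437% of genes over both times and 0.675% at 25 DPI, and edgeR with the same block did not call it (adjusted p = 0.523 over both times, where it called 0.00561% of genes). DESeq2 without the block gave adjusted p = 1.00 for Krt32. Leaving out 1 pair at a time, DESeq2's adjusted p over both times was 0.0121 without the 25 DPI replicate 1 pair, 0.000537 and 0.00958 without the 52 DPI pairs of replicate 1 and 2, and 0.0585, no longer a call, without the 25 DPI replicate 2 pair.

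Krt32 overlaps Gm11571 on the opposite strand, so its counts without regard to strand are uncertain. In the replicate 2 libraries, whose reads keep their strand, Krt32 had 186 reads in iDKO, against 1240 in control on its own strand at 25 DPI, where the counts without strand were 63 and 380. At 52 DPI it had 52 reads in iDKO, against 186 in control, where the counts without strand were 17 and 62. With these stranded counts, DESeq2 with the block gave Krt32 a log2 fold change of -1.70 (SE 0.27, adjusted p = 8.69e-07) over both times, -1.83 (adjusted p = 0.00424) at 25 DPI and -1.54 (adjusted p = 0.120) at 52 DPI.

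The effect of iDKO was then compared between the times. Of the 19 tested genes, 17 had a higher fold change at 52 than at 25 DPI. Their median difference was 2.25, against 0.02 over all tested genes, and 0.91 over the 20 genes tested without iDKO 52 DPI replicate 2. EdgeR called 0 genes (0.0%), with 139 genes and 4 of the set at an unadjusted p under 0.05, and DESeq2 called 0. The differences were 12.00 (SE 4.20) for Krt35, 8.14 (SE 2.96) for Krt71, 7.84 (SE 3.09) for Krt27 and 4.59 (SE 1.93) for Lef1, all with adjusted p = 1.00. These differences were 1.94, 2.74, 3.31 and 2.05 for Krt35, Krt71, Krt27 and Lef1 without iDKO 52 DPI replicate 2. Without the filter on low counts, edgeR called 19 genes (0.0586%), 5 of them of the set, Krt35, Krt71, Krt28, Krt27 and Krt25, a fit not repeated without iDKO 52 DPI replicate 2. In both pairs Krt28 and S100a3 were lower in iDKO at 25 DPI and higher at 52 DPI. These were 2 of 19 tested genes, where 8.06% of all tested genes had this pattern. Some of these directions rested on few reads. In iDKO and control, Krt28 had 2 and 4 reads in the 25 DPI replicate 2 pair and 10 and 6 in the 52 DPI replicate 1 pair. S100a3 had 9 and 19 reads in the 25 DPI replicate 2 pair.

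Between the times edgeR made no call in either genotype (0.0% of genes in each), and DESeq2 called 15 genes in each. In iDKO at 52 against 25 DPI, 15 of the 19 genes were higher, with a median of 1.21, against -0.12 over all tested genes. The median was -0.17 over the 20 genes tested without iDKO 52 DPI replicate 2. EdgeR had 298 genes at an unadjusted p under 0.05, 4 of them of the set, Dlx3 at 3.16 (SE 0.94), Krt71 at 8.13 (SE 2.42), Krt25 at 7.17 (SE 2.52) and Krt35 at 8.01 (SE 3.12), adjusted p = 1.00 for each. DESeq2 called Krt71 (8.28, adjusted p = 0.000779) and Krt25 (7.23, adjusted p = 0.0203) here, where it called 0.0807% of genes, and without iDKO 52 DPI replicate 2 edgeR's values were 2.73 for Krt71 and -2.42 for Krt25. Without the filter edgeR called 37 genes (0.114%), 5 of them of the set, Krt71, Krt35, Krt25, Krt73 and Padi3, likewise not refitted without that library. In control at 52 against 25 DPI, 13 of the 19 genes were lower, with a median of -0.92, against -0.14 over all tested genes. Of all tested genes, 269 had an unadjusted p under 0.05 in edgeR's test, none of them of the set. The median was 0.12 over the 26 genes tested without control 25 DPI replicate 1. Krt32 was at -2.16 (SE 0.95), Krt27 at -5.27 (SE 2.36), Krt31 at -2.48 (SE 1.23) and Krt83 at -2.62 (SE 1.30), with adjusted p = 1.00 for each in edgeR's test, and at -0.71, -1.36, -2.18 and 0.03 without that library.

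Within pairs of libraries a shift of the set towards iDKO was seen at 52 DPI in replicate 2. There 78.9% of the 19 tested genes were higher in iDKO, against 46.4% of all tested genes, with a median log2 ratio of 2.48. In the 52 DPI replicate 1 pair 47.4% were higher, against 50.4% of all tested genes, with a median of -0.01. In the 25 DPI pairs 31.6% and 36.8% were higher in replicates 1 and 2, against 49.9% and 48.7% of all tested genes, with medians of -0.37 and -0.17.

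The replicate numbers were also compared. Between replicate 2 and replicate 1 libraries, with group as a covariate, edgeR called 3043 genes (17.1%, with 9.84% higher and 7.22% lower in replicate 2) and 1 of the 19, Foxq1, with a log2 fold change of -1.18 (SE 0.31, adjusted p = 0.0431). Foxq1 overlaps A530084C06Rik on the opposite strand, and with stranded counts for the replicate 2 libraries its value was -0.22 (adjusted p = 0.623) and no gene of the set was called, where 20.6% of all genes were. Without iDKO 52 DPI replicate 1, 4 of 24 tested genes of the set were called, where 15.9% of all genes were, and without iDKO 52 DPI replicate 2, 3 of 20, where 16.4% were. Krt32 had -1.30 (SE 0.48, adjusted p = 0.0925) and 0.35 with stranded counts. Gata3 had -1.01 (SE 0.37, adjusted p = 0.094), and Krt25, higher in replicate 2, had 3.86 (SE 1.90, adjusted p = 0.175), or 1.30 without iDKO 52 DPI replicate 2.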

How the data were processed

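Skin epidermis of mice was sequenced as 8 RNA libraries, 2 in each of 4 groups of genotype and time. Per the labels, Trizol was used for extraction and the Clontech SMART-seq v4 kit for the libraries. The submitters' processing notes list STAR 2.5.2a, Trimmomatic 0.35, FastQC 0.11.9 and DESeq2 1.24.0, with GRCm38 and mm10. Settings and annotation release: not given in sources used here. The deposited tables hold raw read counts, 1 row a gene, in 3 columns, one without strand and one for each strand.

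Counts without strand were tested. Genes kept by filterByExpr (17839) were fitted in edgeR 4.0.16 (R 4.3.3) with 1 mean per group, TMM scaling, glmQLFit and glmQLFTest, with 4 residual degrees of freedom (5 over both times). P-values were adjusted by Benjamini-Hochberg over all tested genes, with 0.05 as the threshold. They measure only the spread between 2 libraries a group, which may be technical. Alternatives were DESeq2 1.42.0, its size factors in edgeR, no filter, a block by replicate number or by number within time, stranded counts for the replicate 2 libraries, and each library left out. The labels give every group the numbers 1 and 2. Deviations of same-numbered libraries from their group means correlated at 0.395 to 0.793 in the 6 pairs of groups. Same-numbered libraries were therefore treated as pairs in the blocked fits and the pair comparisons. The main edgeR fit did not use these pairs, so differences between replicate numbers count in its spread. The edgeR step was tested on simulated data.

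Symbols matched 54723 of 54838 gene IDs. Coordinates and exon lengths are from GENCODE M21 (GRCm38) and promoters from RefSeq (GRCm38.p6). The share of 50-base stretches found in other genes stands in for a planned comparison of proteins. The genes and lists were chosen with earlier results of these data known. Full statistics go to called genes and to the 4 tested genes of smallest unadjusted p in each comparison. The single-library thresholds, the left-out pairs and the stranded fit of Krt32 were added after seeing the data. Intervals and floors of 3 counts cover counting error only, since reads without molecular identifiers are not independent molecules.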

Additional observations from a re-analysis of the deposited data

How the results depend on the processing

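The calls depended on the tool, the filter and the block more than on the scaling: with DESeq2's size factors in edgeR all 47 results kept their direction and side of the threshold. Without the filter edgeR called 8 genes at 25 DPI, 25 at 52 DPI, 16 over both times, 19 for the difference between times, 37 for time in iDKO and 62 for time in control. Of the set, 5 genes each were then called at 52 DPI, for the difference and for time in iDKO, and 2 of 30 between replicate numbers (13.5% of all genes). DESeq2 called 1 gene at 25 DPI, 2 at 52 DPI, 7 over both times, 15 for time in iDKO and 15 in control, with 2 of the set for time in iDKO and 3 of 24 between replicate numbers (29.1% of all genes). With the replicate block within time, DESeq2 gave 100 genes at 25 DPI, 36 at 52 DPI, 73 over both times and 37 for the difference, with 1 gene of the set, Krt32, at 25 DPI and 1 over both times. EdgeR with that block gave 1 gene over both times. The set's 25 DPI median was -0.71 with the replicate block, -0.28 with the replicate block within time and -0.37 with DESeq2 and that block. The pairing changed no other call of the set. With stranded counts for the replicate 2 libraries 0 genes of the set were called between replicate numbers (20.6% of all genes), and Krt32 was reversed there at 0.35. Leaving out 1 library at a time, the set's median ranged from -1.32 to 0.16 at 25 DPI and from 0.19 to 3.20 at 52 DPI, and 0 to 4 of its genes were called between replicate numbers, where 0.684% to 16.4% of all genes were. Log2 fold changes reversed without control 25 DPI replicate 1 in Krt83 at 25 DPI (range over libraries left out -3.44 to 0.041), Krt35 at 25 DPI (-4.41 to 0.15) and Krt83 for time in control (-3.47 to 0.034). They reversed without iDKO 52 DPI replicate 2 in Krt35 (-1.55 to 12.84) and Krt25 (-3.52 to 7.17) at 52 DPI and in Krt25 (-2.42 to 8.17) and Krt35 (-1.89 to 9.01) for time in iDKO. With unscaled totals the mean sum of type II hair keratins was 0.618 CPM in iDKO 25 DPI and that of the transcription factors 343 CPM in control 25 DPI. The causes of these changes were not tested, except that leaving out a library removes its counts. Of the 33 genes, 14 were too low to test.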
